A study of Mus musculus with 14 samples.

Results

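The myostatin, activin and follistatin axis was followed in mouse hind limb muscle through 10 genes chosen by name, out of 49585 genes listed in the RNA-seq tables. The ligands are Mstn (myostatin), its close relative Gdf11, the stress-induced Gdf15, and Inhba and Inhbb, which encode the subunits of activin A and activin B. The receptors are Acvr2a and Acvr2b, and the remaining members are follistatin (Fst) and the follistatin-like genes Fstl1 and Fstl3.

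RNA of hind limb muscle was sequenced from mice that were wild type (WT) or lacked Myf6 (KO), each without injury or with injury, which gave 4 groups of 3 libraries. The MRF4 protein that Myf6 encodes is a myogenic transcription factor, and the series asks whether it controls secreted muscle factors that maintain the muscle stem cells. The same animal numbers occur with the letter L among the uninjured and R among the injured libraries, and are read here as the legs of 6 animals, 3 of each genotype. The labels do not give the kind of injury, the time after it, the strain, the age or the knockout allele. Because WT and KO libraries come from different animals, a difference of genotype cannot be told apart from one of litter or handling. A list of Flag-Myf6 ChIP-seq peaks from 1 library of primary myotubes, derived from adult satellite cells, with 1 control, came with the RNA data.

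Myostatin is secreted mainly by muscle fibres and restrains muscle growth: animals without it have enlarged muscles. Myostatin, GDF11 and the activins bind the type II receptors ACVR2A and ACVR2B, which recruit a type I receptor and signal through SMAD2 and SMAD3. Follistatin and FSTL3 bind these ligands in the extracellular space and keep them from the receptors, whereas FSTL1 is a more distant relative with other partners and GDF15 signals through GFRAL with RET.

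Recovered depth was 1880087 reads in uninjured WT replicate 2 and 12704445 to 49392472 in the other 11 libraries, so 1 read was worth 0.532 RPM (reads scaled to an equal total in every library) in the first and 0.0202 to 0.0787 RPM elsewhere. The targeted gene, Myf6, was at 46.2, 25.0 and 111 RPM in the uninjured WT and 1.86, 3.46 and 2.27 RPM in the uninjured KO libraries, and at 47.9, 121 and 72.5 RPM against 3.32, 2.88 and 3.02 RPM after injury. All 10 fibre markers were found in every library, and their summed level was 125336 to 135593 RPM in uninjured WT and 184894 to 188725 RPM in uninjured KO muscle. The 4 regenerating fibre markers also lay apart without injury (655 to 1024 RPM in WT, 1255 to 2333 RPM in KO), as did Malat1, a nuclear RNA (213 to 284 against 81.1 to 106 RPM), and the leukocyte markers overlapped (42.6 to 81.1 against 24.4 to 46.2 RPM). The part of these differences in the members' values was not tested. The satellite cell markers Myf5 and Calcr, the tenocyte marker Mkx and the leukocyte marker Ptprc were at 0 in at least 1 library. Injured KO replicate 2 stood apart: mitochondrial genes took 23.2% of its reads against 4.95% and 4.30% in the other injured KO libraries, and Malat1 was at 288 RPM against 80.4 and 73.4 RPM, which is inside the injured WT range of 249 to 494 RPM. Its Schwann cell markers summed to 1113 RPM against 193 and 303 RPM, its endothelial markers to 446 against 271 and 247 RPM, and its fibre markers to 116486 against 175953 and 180869 RPM. Without it, 2343 genes in place of 34 passed the KO against WT test after injury, so the members' injured values are given with and without it. Uninjured KO replicate 2 had an upper quartile scaling factor of 1.643, against 0.868 to 1.16 in the other libraries, and held the lowest Mstn, Acvr2a and Fst of all 12. In whole muscle, fewer cells of a type and less RNA per cell cannot be told apart.

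Promoter letters are shown for the ligands Mstn and Gdf11 and the receptor Acvr2b, because Acvr2b and Mstn had the largest differences between KO and WT uninjured muscle with all libraries on the log2(RPM + 1) scale and Gdf11 was the tested member whose groups did not overlap. Myogenic factors bind the E-box, spelled CANNTG and the same on both strands, and each window is the 250 bases before the gene start in RefSeq (GRCm38.p6), 5′ to 3′ on the gene's strand, with E-boxes in capitals. The Mstn window is chr1:53061390-53061639 (plus strand), the Gdf11 window chr10:128891719-128891968 (minus strand) and the Acvr2b window chr9:119401928-119402177 (plus strand).
Mstn: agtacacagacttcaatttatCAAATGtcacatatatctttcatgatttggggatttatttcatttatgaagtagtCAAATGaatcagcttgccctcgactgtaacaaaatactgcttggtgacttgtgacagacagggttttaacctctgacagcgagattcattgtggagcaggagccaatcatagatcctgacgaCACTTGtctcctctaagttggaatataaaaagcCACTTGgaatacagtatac
Gdf11: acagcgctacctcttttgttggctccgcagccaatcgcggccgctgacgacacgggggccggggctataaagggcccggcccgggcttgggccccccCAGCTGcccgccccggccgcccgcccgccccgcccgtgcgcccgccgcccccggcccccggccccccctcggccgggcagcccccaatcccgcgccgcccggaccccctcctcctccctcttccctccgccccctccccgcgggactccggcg
Acvr2b: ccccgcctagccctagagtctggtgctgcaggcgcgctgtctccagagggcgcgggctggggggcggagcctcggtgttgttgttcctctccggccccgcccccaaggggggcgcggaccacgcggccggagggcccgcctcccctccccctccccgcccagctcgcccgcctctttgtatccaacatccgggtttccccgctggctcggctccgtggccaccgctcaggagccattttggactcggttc
The Mstn window held 4 E-boxes and was 38.4% GC, whereas 3.84% of 32851 promoters of the same length held 4 or more and 66.2% held at least 1. Gdf11, at 81.2% GC, held a single E-box, CAGCTG, a word found in 13.0% of promoters. Acvr2b, at 72.8% GC, held none, as did 33.8% of promoters. A match is only a match of letters, and no Flag-Myf6 peak overlapped the promoter window of any of the 9 members that matched the promoter table, against 1.202% of all promoters.

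Uninjured muscle was compared first, to ask whether loss of Myf6 alters the axis. Myostatin was at 50.9, 32.4 and 102 RPM in the WT libraries, against 31.3, 11.0 and 80.5 RPM in the KO libraries. The ranges overlapped, and each group spread over more than the distance between the means. The difference was -0.83 on the log2(RPM + 1) scale (SE 0.66, 95% interval -2.32 to 0.65, limma adjusted p = 0.612). It was -0.14 without KO replicate 2, -0.40 without WT replicate 3 and -1.52 without KO replicate 3. A difference of that size was not detectable with 3 such libraries a group.

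Gdf11, which acts through the same receptors as myostatin, varied less. It was at 15.9, 15.96 and 12.1 RPM in the WT libraries, against 22.1, 19.0 and 21.6 RPM in KO muscle. Every KO library lay above every WT library, by a log2 difference of 0.49 (SE 0.29, interval -0.16 to 1.14), which did not pass the test (limma adjusted p = 0.484). The exact two-sided permutation test gave p = 0.1, the smallest that 3 libraries against 3 allow. Of all genes tested, 6.2% had every KO library above every WT library. In the authors' deposited table the Gdf11 difference was 0.75 in the same direction with an unadjusted p of 0.0397 and a q-value of 0.857.

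The activin subunits were scarce. Inhbb was at 1.995, 0 and 2.70 RPM in the WT libraries, against 3.23, 0.551 and 3.37 RPM in KO libraries, where the 0 comes from the shallowest library. The log2 difference was 0.46 (SE 0.61, limma adjusted p = 0.782) and turned to -0.12 when that library was left out. Inhba gave 14 reads over the 12 libraries together and was at 0 in 5 of them, at or under the 3-read floor in 10, so no comparison was possible. Gdf15, which many tissues switch on under stress, stayed low as well: 0.290, 0.532 and 1.61 RPM in WT and 0.647, 0.0787 and 0.117 RPM in KO muscle. Summed over libraries it had 59 reads in WT and 23 in KO muscle, a ratio of 0.302 (interval 0.178 to 0.496, counting error only). Of the 59 reads, 49 came from 1 library, and the ranges overlapped.

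The receptor Acvr2b had the largest difference among the members tested with all libraries on this scale. It did not under upper quartile scaling (-0.65, against 0.77 for Gdf11) or with a pseudocount of 0.1 (-1.05, against 1.23 for Inhbb). Nor did it without WT replicate 1 (-0.87, against -0.89 for Mstn), WT replicate 2 or KO replicate 3 (-0.59, against -1.52 for Mstn). Acvr2b was at 7.37, 12.8 and 3.69 RPM in the WT libraries, against 4.91, 3.94 and 1.92 RPM in KO muscle. The highest KO library lay above the lowest WT library, so the groups overlapped. The log2 difference was -0.89 (SE 0.48, interval -1.98 to 0.20, limma adjusted p = 0.440), and -0.51 without the shallow WT library, which held the highest value (Mstn was then -1.21). Mitochondrial genes took 18.1%, 22.3% and 13.8% of reads in the WT and 6.76%, 15.3% and 3.63% in the KO libraries, and the part of this share in the Acvr2b difference was not tested. Acvr2a was at 11.3, 6.91 and 18.8 RPM in the WT libraries, against 7.68, 4.33 and 22.4 RPM in KO muscle, where the KO values enclosed the WT values. Its log2 difference was -0.28 (SE 0.57, interval -1.56 to 1.004, limma adjusted p = 0.865).

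In the follistatin family, Fst was at 4.99, 3.72 and 3.06 RPM in the WT libraries, against 6.50, 0.708 and 5.96 RPM in KO muscle. A single low KO library set its sign: the log2 difference was -0.12 (SE 0.58, limma adjusted p = 0.951) with all libraries and 0.57 without KO replicate 2. Fstl1 was at 111, 55.8 and 81.4 RPM in the WT libraries, against 62.6, 72.1 and 58.7 RPM in KO muscle, with all KO values inside the WT range (log2 difference -0.31, SE 0.30, limma adjusted p = 0.698). Fstl3 was near the floor, with 2, 0 and 0 reads in the WT and 9, 1 and 15 reads in the KO libraries. The pooled ratio of KO to WT was 9.68 with a counting interval of 2.41 to 84.3, which rests on 2 WT reads, and 1 WT library was so shallow that its 3-read floor of 1.60 RPM exceeds every KO value.

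**Figure D1:**
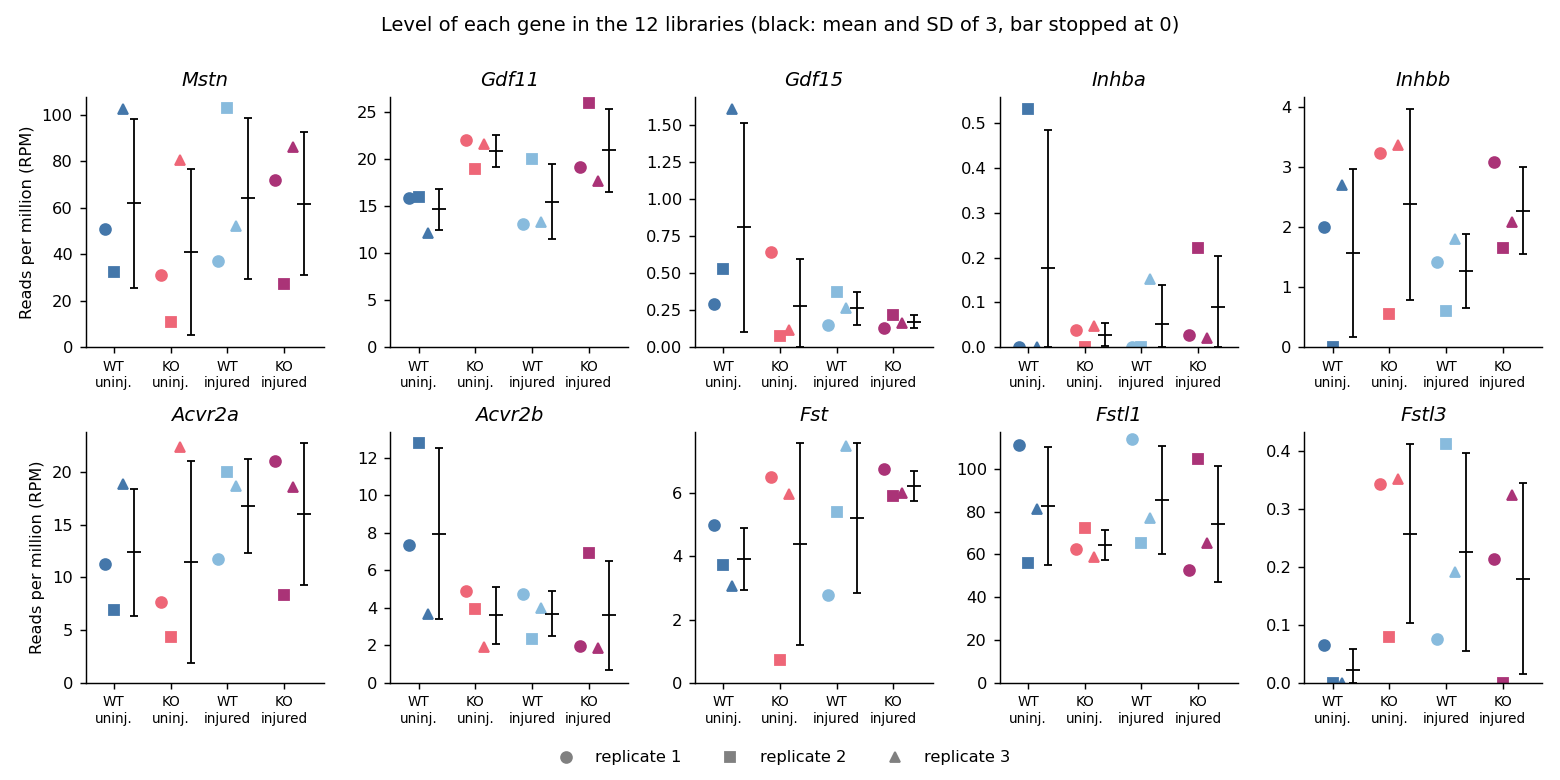
Level of each of the 10 genes in RPM (linear axes, a scale of its own for each gene) in the 12 libraries, by group, with symbols for the replicate number; black marks give the mean and SD of 3 libraries, with bars stopped at 0. Gdf11 is the member whose uninjured KO libraries (19.0 to 22.1 RPM) all lie above the WT libraries (12.1 to 15.96 RPM), apart from Fstl3, which rests on few reads.

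In this comparison 7 of the 10 members had enough reads to be tested (1 RPM or more in 3 or more of the 6 libraries), and Gdf15, Inhba and Fstl3 did not. None of the 7 passed an adjusted p of 0.05, by limma, edgeR or DESeq2, and none had an unadjusted limma p under 0.05. The share of all genes that passed by limma was 0.281%, and 14.2% had an unadjusted limma p under 0.05. Without adjustment 1 member each was under 0.05 by edgeR, by DESeq2 and by limma under upper quartile scaling. Of the 12460 genes tested, 2054, 2244 and 2258 were under 0.05 there. The members' differences ran from -0.89 to 0.49 with a median of -0.28, beside -0.18 for all genes tested. The all-gene median was 0.07 under upper quartile scaling and -0.32 when mitochondrial reads were left out of the totals. Among the members only Fst changed sign with scaling, to 0.04 under the upper quartile and to 0.24 by edgeR.

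The same question was asked in injured muscle. Mstn was at 37.1, 103 and 52.2 RPM in the WT libraries, against 71.9, 27.3 and 86.2 RPM in KO muscle, so the WT libraries spanned most of the KO range. The log2 difference was -0.08 (SE 0.52, interval -1.30 to 1.15, limma adjusted p = 0.977). Without injured KO replicate 2, the lowest of the KO libraries, it became 0.42.

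Gdf11 was at 13.1, 20.1 and 13.3 RPM in the injured WT libraries, against 19.2, 25.9 and 17.7 RPM in injured KO muscle. The highest WT library lay above 2 of the KO libraries. The log2 difference was 0.42 (SE 0.24, limma adjusted p = 0.587) and 0.26 without KO replicate 2. Inhbb was at 1.43, 0.599 and 1.80 RPM against 3.08, 1.66 and 2.09 RPM in KO, with 1 KO library below the highest WT library. Its log2 difference was 0.54 (SE 0.29, limma adjusted p = 0.573) and 0.68 without KO replicate 2.

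Acvr2b was at 4.73, 2.36 and 3.98 RPM in the injured WT libraries, against 1.98, 6.92 and 1.86 RPM in injured KO muscle. Replicate 2 held the highest of all 6 values, and the other 2 KO libraries lay below every WT library. The log2 difference was -0.17 (SE 0.44, limma adjusted p = 0.929) with it and -0.65 without it (limma adjusted p = 0.122). Acvr2a was at 11.7, 19.95 and 18.7 RPM in the WT libraries, against 21.0, 8.35 and 18.6 RPM in KO muscle, a difference of -0.12 with KO replicate 2 and 0.26 without it. Without that library the receptors' differences had opposite signs, and neither passed the test. In that fit 2343 of 12312 genes passed, but no member did. An unadjusted limma p under 0.05 was found there for 4540 genes, 1 of them a member.

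Fst was at 2.78, 5.39 and 7.501 RPM in the injured WT libraries, against 6.77, 5.92 and 6.01 RPM in injured KO muscle, and the KO values lay inside the WT range (log2 difference 0.29 with KO replicate 2 and 0.32 without it). Fstl1 was at 114, 65.3 and 77.0 RPM against 52.7, 104 and 65.1 RPM, with overlapping ranges (-0.22 with that library and -0.50 without it). Fstl3 had 1, 11 and 5 reads in WT and 8, 0 and 16 reads in KO libraries, a pooled ratio of 0.891 (counting interval 0.459 to 1.77). Gdf15 was at 0.150, 0.374 and 0.268 RPM against 0.134, 0.221 and 0.162 RPM, also with overlap. With all libraries, none of the 7 members tested passed the threshold or had an unadjusted limma p under 0.05. The shares of all genes were 0.269% and 10.3%. The members' median difference was -0.08 beside 0.01 for all genes.

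**Figure D2:**
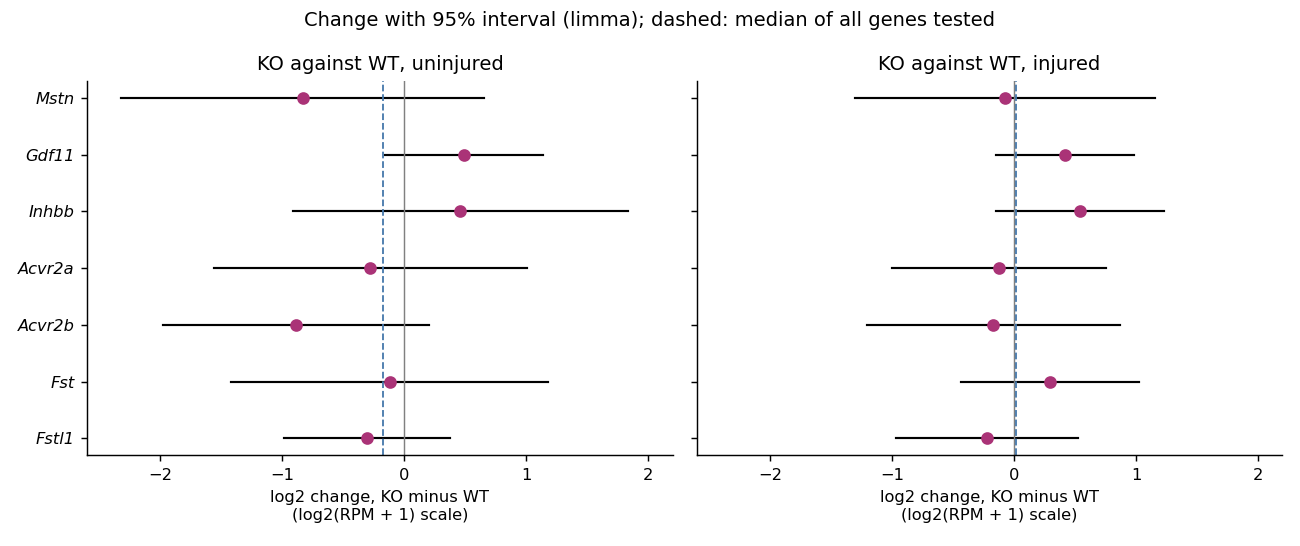
Log2 difference of KO minus WT on the log2(RPM + 1) scale for the 7 members tested, uninjured on the left and injured on the right; points are limma estimates, bars their 95% intervals, and dashed lines the median of all genes tested. Every interval includes 0; the uninjured interval of Acvr2b runs from -1.98 to 0.20 and that of Gdf11 from -0.16 to 1.14.

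Injury was then compared with no injury within each genotype, with all 12 libraries in 1 fit of group means. That fit does not pair the legs of an animal, so its errors and p-values treat the libraries as separate. All uninjured libraries carry the letter L and all injured ones R, so injury cannot be told apart from side. In WT animals the changes of the 7 members ran from -0.83 (Acvr2b, SE 0.48, limma adjusted p = 1) to 0.48 (Acvr2a, SE 0.52), with a median of 0.06 beside 0.09 for all genes. In KO animals they ran from -0.11 (Acvr2b) to 0.84 (Mstn, SE 0.66, limma adjusted p = 0.729), with a median of 0.14 beside 0.29 for all genes. The Mstn change in KO animals became 0.14 when the second uninjured KO library was left out, and 1.52 when the third was. No member passed in either genotype, and 0.0% of all genes did so, in WT or in KO animals. Without adjustment 1.29% of all genes in WT and 3.51% in KO animals had a limma p under 0.05, and no member did.

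Read by animal, myostatin changed by -0.45, 1.64 and -0.96 in the WT animals, injured minus uninjured on the log2(RPM + 1) scale. In the KO animals it changed by 1.17, 1.23 and 0.10, all upward. The uninjured leg of the second WT animal is the library of 1880087 reads, and without it the mean change in WT became -0.30 from 0.08. Fst was also higher in the injured leg of all 3 KO animals, by 0.05, 2.02 and 0.01, where 1 animal carried almost the whole change. Most genes rose on this scale: the mean change in KO animals was below 0 for 19.1% of all genes tested. Under upper quartile scaling it was below 0 for 51.9%. Acvr2b changed by -0.55, -2.04 and 0.09 in WT and by -0.99, 0.68 and -0.03 in KO animals, with no common direction in either genotype.

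**Figure D3:**
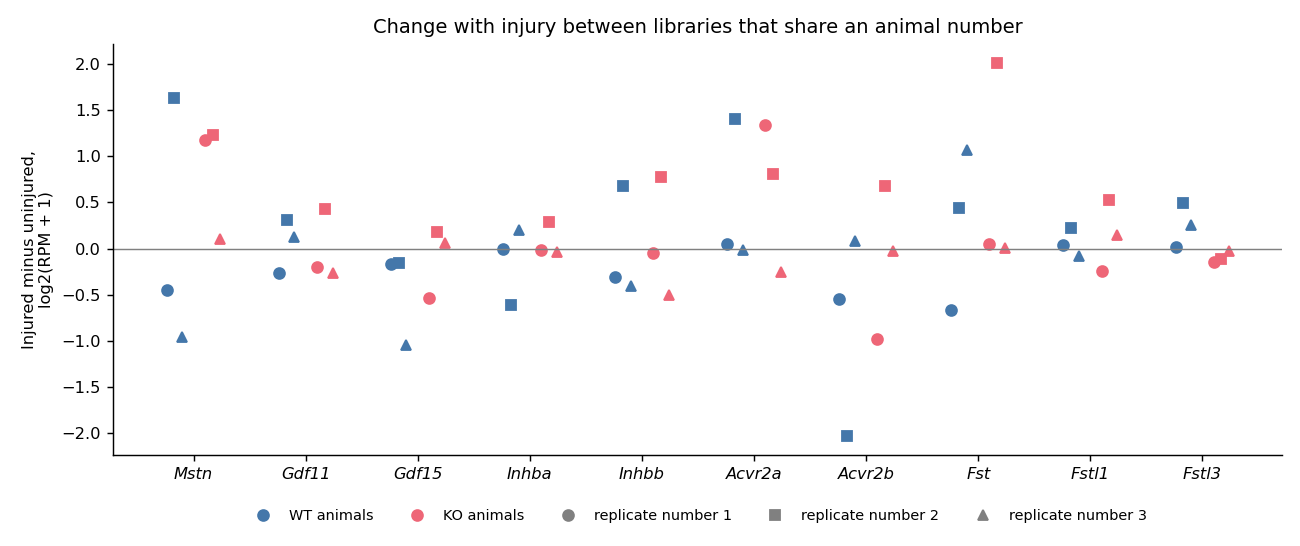
Change with injury for each of the 10 genes, injured minus uninjured library of the same animal number, on the log2(RPM + 1) scale; blue points are WT and red points KO animals, with symbols for the replicate number. Mstn is higher in the injured leg in 1 of 3 WT and 3 of 3 KO animals, and Fstl3 changed in opposite directions in the 2 genotypes at very low read numbers. The mean change in KO animals was below 0 for 19.1% of all genes tested.

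Whether injury acted differently in KO and WT animals was tested as an interaction. The terms ran from -0.07 (Gdf11) to 0.76 (Mstn, SE 0.93, interval -1.25 to 2.77), with a median of 0.15 beside 0.20 for all genes. The Mstn term was 0.06 without uninjured KO replicate 2, 0.32 without uninjured WT replicate 3 and 1.44 without uninjured KO replicate 3. Every member had a limma adjusted p of 0.9999, 0.0% of all genes passed, and the member with the smallest unadjusted p was Acvr2b, at 0.310 (interaction 0.72, SE 0.68). Without adjustment 1.56% of all genes and no member were under 0.05.

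Mstn and Acvr2a varied widely between libraries of 1 group. The Mstn coefficient of variation was 58.6% in uninjured WT, 87.2% in uninjured KO, 53.8% in injured WT and 49.8% in injured KO libraries. Among genes with a group mean of 10 to 200 RPM these values lay above 96.0%, 97.3%, 99.1% and 85.4% of genes. Acvr2a varied by 48.8%, 83.7%, 26.5% and 42.1%, above 91.9%, 96.6%, 85.3% and 78.8% of genes. Gdf11, of the same ligand family, varied by 15.0%, 8.05%, 25.6% and 20.9%, above 30.1%, 5.68%, 83.7% and 43.9% of genes. Fstl1 varied by 33.3%, 10.7%, 29.7% and 36.4%, above 75.4%, 9.65%, 89.3% and 71.4% of genes. In injured WT libraries Fstl1 varied more than Acvr2a. In each of the 4 groups Mstn varied more than Gdf11.

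Acvr2a followed Mstn across libraries. The libraries lowest in Mstn, uninjured KO replicate 2 (11.0 RPM), injured KO replicate 2 (27.3 RPM), uninjured KO replicate 1 (31.3 RPM) and uninjured WT replicate 2 (32.4 RPM), were also the 4 lowest in Acvr2a, at 4.33, 8.35, 7.68 and 6.91 RPM. Over the 12 libraries Pearson's r of log2(RPM + 1) was 0.934 and Spearman's rho 0.839. Leaving out the 2 libraries farthest from the median of Mstn gave an r of 0.896. Within the 6 WT and 6 KO libraries r was 0.835 and 0.977, and within the uninjured and injured libraries 0.956 and 0.902. The 12 libraries come from 6 animals and share their scaling, so these are descriptions without a p. Nor was the likeness peculiar to the receptor: 412 of 7142 genes (5.77%) had an r of at least 0.9 with Mstn, and Acvr2a ranked 153rd among them. The share of mitochondrial reads ran the other way, with an r of -0.521 with Mstn and -0.594 with Acvr2a over the same libraries. Read depth (log10 of reads) had an r of 0.539 with Mstn and 0.644 with Acvr2a, and the part of either in the likeness was not tested.

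The other receptor behaved differently. Acvr2b had an r of -0.540 and a rho of -0.671 with Mstn over the 12 libraries, and -0.940 within the 6 injured libraries against -0.277 within the uninjured ones. Its r with the mitochondrial share was 0.871, with read depth -0.779 and with Acvr2a -0.684 (rho -0.713), and 3 genes had an r of at least 0.9 with it. Fstl1 had an r of -0.215 with Mstn (rho -0.154), and -0.849 within the 6 injured libraries. The injured relations include the library that stands apart.

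**Figure D4:**
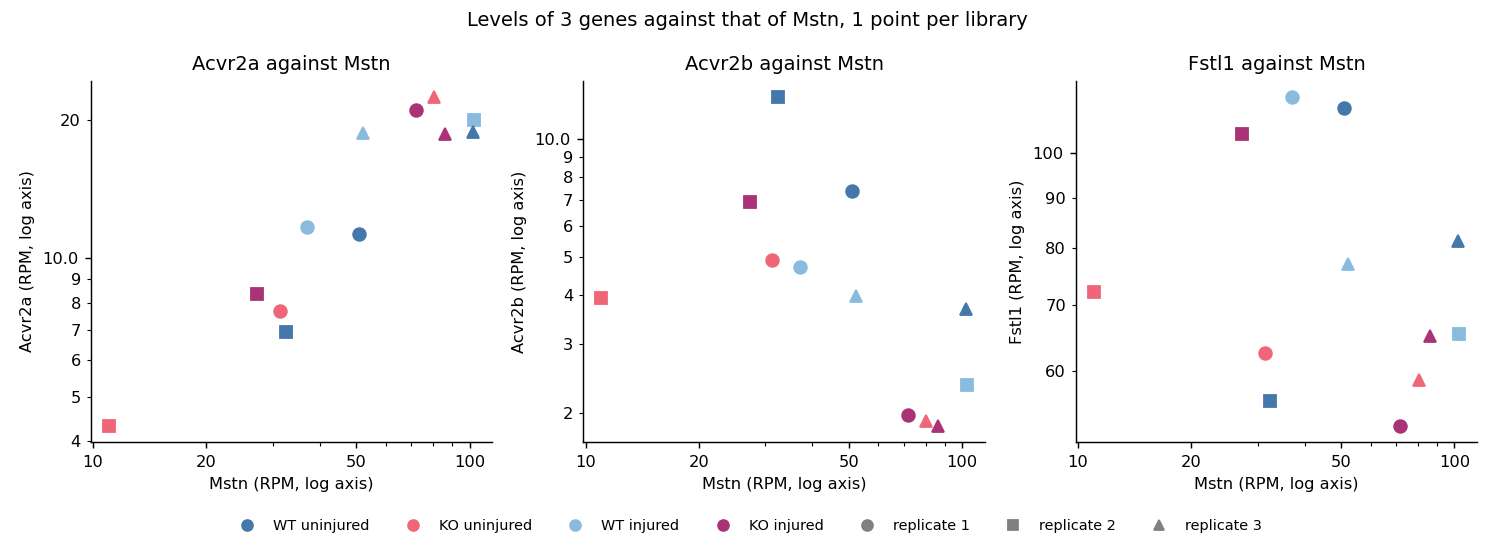
Level of Acvr2a, Acvr2b and Fstl1 against that of Mstn in RPM (log axes), 1 point per library, coloured by group with symbols for the replicate number. Acvr2a rises with Mstn (r = 0.934 over 12 libraries of 6 animals), whereas Acvr2b tends downward (r = -0.540) and Fstl1 shows little trend (r = -0.215).

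Genes most alike in pattern were named by their r over the 12 libraries among genes averaging at least 10 RPM. For Mstn these were Emc2 (r 0.976, rho 0.958), a subunit of the complex that inserts membrane proteins into the endoplasmic reticulum, Oxnad1 (0.975, 0.937) and the splicing factor Bcas2 (0.974, 0.965). For Acvr2a they were Tmem170b (0.986, 0.874), the metalloprotease gene Adam9 (0.982, 0.909) and Rai2 (0.978, 0.937). For Acvr2b they were the cytokine receptor gene Il10rb (0.928, 0.979), Larp4b (0.913, 0.944) and the S6 kinase gene Rps6kb2 (0.902, 0.909). For Fst they were Dnmbp (0.93, 0.769), Nicn1 (0.922, 0.741) and the guanylate kinase gene Guk1 (0.911, 0.839). For Fstl1 they were the xanthine dehydrogenase gene Xdh (0.941, 0.839), Gucy1a1 (0.928, 0.93) and Dpysl3 (0.925, 0.937). None of these lists contained another member.

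Mstn was also set against the follistatin family within each library. The log2 ratio of Mstn over Fst, each plus 1 RPM, was 3.54 ± 0.99 (SD, n = 3) in uninjured WT and 2.82 ± 0.72 in uninjured KO muscle, and 3.33 ± 0.69 and 2.97 ± 0.83 after injury. The ranges overlapped in both states, 2.82 to 4.67 against 2.11 to 3.55 without injury and 2.65 to 4.02 against 2.03 to 3.64 with it. With 0.1 RPM added in place of 1, the ratio in uninjured KO replicate 2, where Fst was at 0.708 RPM, went from 2.81 to 3.78, and the ranges still overlapped. For Mstn over Fstl3 the ratio was 5.79 ± 0.83 in uninjured WT and 4.66 ± 1.22 in uninjured KO muscle, with overlap. With 0.1 RPM added the groups no longer overlapped (8.28 to 10.0 against 5.96 to 7.48), but 2 of the WT libraries had no Fstl3 read, so the added value sets their ratio. For Mstn over Fstl1 the ratio was -0.52 ± 0.75 in uninjured WT and -1.04 ± 1.53 in uninjured KO muscle, and -0.50 ± 1.12 and -0.35 ± 1.34 after injury, with overlap in both states. RPM is not corrected for transcript length, so such a ratio serves to compare libraries and not the amounts of the gene products.

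The wider pathway was read from 50 further genes, of which 36 were tested without injury and 37 with it. None passed the adjusted threshold in any comparison. In uninjured muscle 3 had an unadjusted p under 0.05 upward and 3 downward, and after injury 3 upward and 1 downward, beside 14.2% and 10.3% of all genes in either direction. These 6 of 36 and 4 of 37 genes are shares near those of all genes, so the genes named below are given as values. The list's median difference was 0.03 without injury beside -0.18 for all genes, and 0.07 with injury beside 0.01.

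Among the ligands of that list, Tgfb1, the founding member of the superfamily, was at 3.09, 1.06 and 3.20 RPM in uninjured WT and at 8.52, 6.06 and 7.15 RPM in uninjured KO libraries. After injury it was at 4.35, 3.63 and 2.79 RPM in the WT libraries, against 7.60, 5.26 and 8.38 RPM in KO libraries. The KO libraries lay above the WT libraries in both states, by 1.32 (SE 0.40, limma adjusted p = 0.2013) and 0.81 (SE 0.24, limma adjusted p = 0.333), short of the threshold. Of all genes tested, 6.2% without injury and 8.29% with injury had every KO library above every WT library.

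Of 9 genes that process or bind ligand prodomains, 7 were tested without injury. None passed, 1 in each direction had an unadjusted p under 0.05, and 5 of the 7 differences were below 0. Bmp1, a protease that frees myostatin from its prodomain, was at 45.0, 26.1 and 25.4 RPM in uninjured WT and 21.1, 14.7 and 14.8 RPM in uninjured KO muscle (-0.86, SE 0.33, limma adjusted p = 0.284). After injury 2 KO libraries were at 14.7 and 16.1 RPM, whereas KO replicate 2, the library that stands apart, was at 62.4 RPM and above all WT libraries. Tcap, a sarcomere protein that binds myostatin, was at 4111 ± 949 RPM in uninjured WT and 8284 ± 3691 RPM in uninjured KO muscle (SD, n = 3; 0.94, SE 0.38, limma adjusted p = 0.309).

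Other genes of the list with an unadjusted p under 0.05 also missed the adjusted threshold. Chrd, a secreted BMP antagonist, differed by -0.90 in uninjured KO muscle (limma adjusted p = 0.288), where 63.2% of all genes tested had a difference below 0. Skil, which holds back SMAD signalling, differed by -0.91 (limma adjusted p = 0.345), and its highest KO library (6.59 RPM) lay above its lowest WT library (6.38 RPM). After injury the type I receptor gene Acvr1c differed by 1.42 (SE 0.43, limma adjusted p = 0.343). Injured WT libraries held little Acvr1c (0.675, 0 and 0.498 RPM), whereas injured KO libraries held 5.62, 1.27 and 2.17 RPM. Only the KO libraries met the filter of 1 RPM in 3 libraries, so the groups of this gene could not overlap once it was tested. The GDF15 co-receptor gene Ret differed by -0.50 after injury (SE 0.20, limma adjusted p = 0.467), with every KO library below every WT library. The share of all genes in that position was not counted. In the other direction, 8.29% of all genes tested after injury lay apart. For injury itself, the type I receptor gene Tgfbr1 was the member of the list with an unadjusted p under 0.05, in KO animals (1.16, SE 0.50, limma adjusted p = 0.728), and its groups overlapped.

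Flag-Myf6 peaks were placed against the members' starts, to see whether the factor bound near them in myotubes. The peak list holds 12898 peaks with a median fold enrichment of 7.68, and fold values are the authors'. Coordinates are those of the list and match the chromosomes of GRCm38. A peak summit lay within 50 kb of the start for 6 of the 9 members in the promoter table, beside 39.9% of all genes in that table. Within 10 kb it was 1 of 9 beside 12.9%, and within 100 kb 8 of 9 beside 56.9%. Fst, which has no entry in the promoter table, is not in these counts. A peak lay 1211 bp beyond the higher-coordinate end of its 6.73 kb span, so a summit was within 10 kb of either end.

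Peaks inside a member were found in both receptor genes, 2 of the 10 members, and in 17.3% of all coding genes. Acvr2b spans chr9:119401583-119442148 and held 3, at chr9:119409408-119409604 (fold 9.66), chr9:119417122-119417397 (fold 19.99) and chr9:119425454-119425654 (fold 8.70), with summits 7.32, 15.1 and 23.4 kb after the start. The second was higher than 98.2% of all peaks. Of 2561 coding genes of 30 to 50 kb, 22.1% held at least 1 peak and 2.30% held 3 or more. Whether these peaks lie in exons or introns was not analysed here. Acvr2a, at chr2:48814109-48903264, held 1 peak of fold 6.77 at chr2:48847132-48847294, 33.1 kb after its start, and 44.1% of 710 coding genes of 80 to 100 kb held at least 1. With 1 ChIP library there is no replicate of these peaks, and myotube binding was not measured in the muscles sequenced for RNA.

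The ligand genes, all under 30 kb long, held no peak inside, and 7.12% of coding genes under 30 kb held one. The nearest to Mstn (chr1:53061640-53068079) was chr1:53085401-53085620, 23.9 kb after the start, with a fold of 11.8 that exceeded 85.1% of peaks. The nearest to Gdf11 (chr10:128880524-128891718, minus strand) was chr10:128922242-128922574, 30.7 kb before the start and inside the neighbouring gene Bloc1s1, with a fold of 15.3. Gdf15 (chr8:70629393-70632470) had 3 peaks within 50 kb, and Inhbb (chr1:119415463-119422248) had its nearest summit 82.4 kb away. Inhba (chr13:16004256-16031609) was the most distant, at 196 kb.

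In the follistatin family, Fst (chr13:114452262-114458989) had a weak peak of fold 3.87 at chr13:114460200-114460333, 1211 bp beyond its higher-coordinate end. Fold was lower in 2.51% of all peaks. Fstl3 (chr10:79777274-79782630) had a peak of fold 10.1 located 16.4 kb before its start, inside Rnf126, and Fstl1 (chr16:37777055-37836516) had its nearest summit 72.9 kb from its start.

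**Figure D5:**
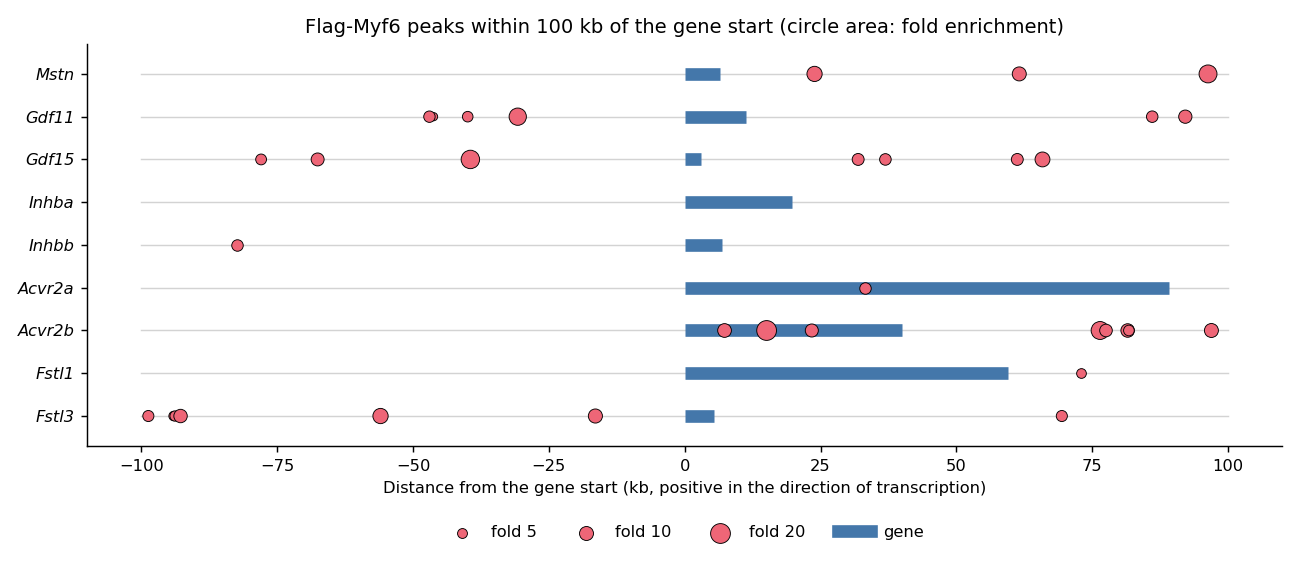
Flag-Myf6 peaks within 100 kb of the start of the 9 members that have an entry in the promoter table. The x axis is the distance in kb, positive in the direction of transcription. Blue bars are the genes and circle area is the authors' fold enrichment. Acvr2b holds 3 peaks inside the gene, Acvr2a holds 1, and Inhba has none in the window.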

How the data were processed

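The members and gene lists were chosen with earlier results of these data known. The authors deposited RPM per gene and library (reads scaled to an equal total of reads assigned to genes), per the file headers. Their tables also hold a log2 fold change (WT over KO by its sign), its standard error (a score here), and an unadjusted p-value beside a q-value, per the file headers. The submitters' processing notes list HISAT2 2.1.0, featureCounts, DESeq2, Bowtie 1.1.0 and the builds mm10 and GRCm38.p5. Settings for strand and for reads with several matches are not given in the sources used here, so reads of the relatives Mstn and Gdf11, or of overlapping genes, could be shared. Peaks were called with MACS2 2.1.0.20140616 at a q cutoff of 0.05 with reads extended to 127 bp, per the file headers. The deposited list gives the signal (pileup) at each summit, the fold enrichment, and both significance values as −log10.

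Whole reads were recovered from the RPM steps: in each library 100% of testable values were whole within 0.1 read. The main test was limma 3.58.1 (R 4.3.3) with a mean-variance trend on log2(RPM + 1), two-sided, over genes at 1 RPM or more in 3 or more fitted libraries, with Benjamini-Hochberg adjustment over all genes and a threshold of 0.05. KO and WT were compared in their own 6 libraries, and injury and the interaction in all 12, as group means without pairing by animal. On recovered reads, edgeR 4.0.16 called 55 genes without and 33 with injury, and DESeq2 1.42.0 was also run. Log2 changes understate those of low genes. Floors (3 reads) and count intervals (exact, 95%) cover counting error only. P-values measure the spread between libraries. The fit was also run on simulated counts with the same setting of spread for every gene and no library effect but depth. That run does not show how the fit performs in these libraries. Named were all members, the pathway genes with the smallest p under 0.05 (up to 6 a comparison; 1 is not reported here), and the 3 genes most like each of 5 members.

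Injured and uninjured libraries with the same number are read as 1 animal. Their deviations from the group means correlated by 0.021 on average in WT (-0.23 to 0.28) and 0.385 in KO animals (0.024 to 0.63). Libraries of different numbers correlated by -0.010 in WT (-0.40 to 0.31) and -0.192 in KO animals (-0.62 to 0.50). In WT animals, same-numbered libraries were thus hardly more alike than others. Gene positions and promoters come from RefSeq (GRCm38.p6), whose chromosomes share the coordinates of the builds listed. Fst had no promoter entry.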

Additional observations from a re-analysis of the deposited data

Results flagged for a closer look

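Fstl3 changed with injury in opposite directions in the genotypes. On the log2(RPM + 1) scale it was higher in the injured leg of all 3 WT animals, by 0.01, 0.50 and 0.25, and lower in that of all 3 KO animals, with changes of -0.14, -0.11 and -0.03. The limma interaction in the fit without a filter on low genes was -0.35 (SE 0.18, unadjusted p = 0.0843, adjusted p = 0.936), so the difference did not pass a test. The 12 values rest on 0 to 16 reads each, and 2 of the 3 uninjured WT libraries were at 0.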

How the results depend on the processing

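No member passed the threshold in any of the 5 comparisons, in limma or in the alternatives run: edgeR, DESeq2, upper quartile scaling, totals without mitochondrial reads, no filter, 0.1 as the pseudocount, a block, and each library left out. The 35 member changes had 581 alternative values, of which 502 kept their direction and 79 turned, and 13 of the 35 changes never turned. Among those that kept it in uninjured KO against WT muscle, Mstn ran from -1.52 to -0.14, Gdf11 from 0.34 to 0.77, Acvr2b from -1.29 to -0.51 and Fstl1 from -0.56 to -0.01. The causes were not tested.

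Over all genes, the 35 calls without injury became 55 by edgeR, 663 by DESeq2, 162 under the upper quartile, 199 without mitochondrial totals, 20 at 0.1 as the pseudocount, 1 without a filter, and 3 to 84 with a library left out (84 without KO replicate 3, 3 without KO replicate 1, 10 without WT replicate 2). Of these calls 16 of 35 were higher in KO muscle, but 110 of 162 under the upper quartile, 31 of 199 without mitochondrial totals and 30 of 55 by edgeR. The 34 calls with injury became 427 by DESeq2, 19 without a filter and 0 to 2343 with a library left out, 2343 without KO replicate 2 and 0 without any other. For injury in KO animals the count was 0 to 1, with 1 gene when uninjured KO replicate 3 was left out. With 10 kb in place of 50 kb, 1 in place of 6 of the 9 members in the promoter table had a summit near the start. The shares of all genes were 12.9% in place of 39.9%. Fst is not in these counts.

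The replicate block gave 752 calls without injury and 0 with injury. Without injury 2 members had an unadjusted limma p under 0.05 in the block fit, beside 2984 of 12460 genes. Replicate numbers of WT and KO libraries name different animals. Deviations of same-numbered libraries correlated by 0.222 on average without injury (0.0368 to 0.373), beside -0.11 for other pairs. With injury these averages were -0.452 and 0.202. The deviations of a group sum to 0, so these correlations depend on each other. Whether same-numbered libraries share more than a number was not tested. Blocking on the animal changed no call for injury or the interaction, which stayed at 0 genes.

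Changes of sign outside left-out libraries were these. For KO against WT without injury, Fst was 0.24 by edgeR, 0.23 by DESeq2 and 0.036 under the upper quartile. For injury in WT animals, Mstn was -0.0047 under the upper quartile and -0.027 without mitochondrial totals, Gdf11 -0.022 and -0.042, and Inhbb 0.60 with a pseudocount of 0.1. Fstl1 was -0.021 by edgeR, -0.033 by DESeq2, -0.024 under the upper quartile and -0.044 without mitochondrial totals. For injury in KO animals, Gdf11 was 0.029 without mitochondrial totals, and by edgeR, DESeq2 and the upper quartile Inhbb was -0.25, -0.26 and -0.12 and Fstl1 -0.15, -0.16 and -0.23. For the interaction, Gdf11 was 0.071 without mitochondrial totals, and Inhbb -0.11 under the upper quartile and -0.36 with a pseudocount of 0.1. By edgeR, DESeq2 and the upper quartile Acvr2a was -0.050, -0.044 and -0.10 and Fstl1 -0.12, -0.13 and -0.21. Fst was -0.028 by edgeR and -0.0047 by DESeq2.

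With libraries left out in turn, KO against WT without injury ran for Inhbb from -0.12 to 0.95, Acvr2a -0.87 to 0.19 and Fst -0.50 to 0.57. With injury it ran for Mstn from -0.40 to 0.42, Acvr2a -0.36 to 0.26, Acvr2b -0.65 to 0.086, Fst -0.029 to 0.56 and Fstl1 -0.50 to 0.0035. For injury in WT animals Mstn ran from -0.33 to 0.51, Gdf11 -0.13 to 0.16, Inhbb -0.59 to 0.36 and Fstl1 -0.19 to 0.30. For injury in KO animals Gdf11 ran from -0.17 to 0.094, Inhbb -0.42 to 0.33, Acvr2b -0.59 to 0.14, Fst -0.00060 to 1.07 and Fstl1 -0.13 to 0.36. For the interaction Gdf11 ran from -0.23 to 0.12, Inhbb -0.41 to 0.66, Acvr2a -0.32 to 0.75, Fst -0.28 to 0.79 and Fstl1 -0.19 to 0.34.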

Other observations

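Within WT muscle, the libraries ranked alike in Mstn and in Myf6, an order noticed after the values were seen. Without injury, Mstn was at 32.4, 50.9 and 102 RPM where Myf6 was at 25.0, 46.2 and 111 RPM. After injury, Mstn was at 37.1, 52.2 and 103 RPM where Myf6 was at 47.9, 72.5 and 121 RPM. In the KO libraries Myf6 stayed between 1.86 and 3.46 RPM while Mstn still ran from 11.0 to 86.2 RPM. With 3 libraries a group no test of this order was made, and the share of all genes that rank like Mstn in both WT groups was not counted. By another measure, over all 12 libraries with KO included, 5.77% of genes had an r of at least 0.9 with Mstn.

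Gdf15 was lower in the injured than in the uninjured leg of all 3 WT animals, by -0.17, -0.16 and -1.04 on the log2(RPM + 1) scale. In KO animals it went both ways (-0.54, 0.18 and 0.06), and the values rest on 1 to 49 reads a library. The second WT animal gave 1 read in the uninjured leg, the shallowest library, and 10 in the injured leg. The injured leg of the first WT animal gave 2 reads. Both low values are under the 3-read floor, so the direction in these animals is not settled. The share of all genes lower in all 3 WT animals was not counted.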
